A study of Mus musculus with 6 samples.

Results

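Matricellular proteins are secreted into the extracellular matrix but act mainly on cells rather than as load-bearing fibres. They bind integrins, growth factors and collagen, and they are made by fibroblasts during development, wound repair and tissue remodelling. Described here are 10 genes of this class: the thrombospondins Thbs1 and Thbs2, the tenascin Tnc, the fasciclin-domain proteins Postn (periostin) and Tgfbi, the SPARC family genes Sparc, Smoc1 and Smoc2, the phosphoprotein Spp1 (osteopontin) and the matrix Gla protein Mgp. They were chosen with earlier results of these data known, and taken by name through every probe that the platform's annotation assigns to them. That gave 21 of 34885 probes with 1 gene symbol, for 9 of the 10 genes. Spp1 has no probe in the annotation used and was not analysed here.

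The cells were mouse embryonic fibroblasts (C57Bl/6NCr), connective tissue cells of the embryo grown in culture. One group was wild type (Lasp1+/+, 3 arrays) and the other was Lasp1 knock out (Lasp1-/-, 3 arrays), and no other allele, treatment or age is given. LASP1 is an actin-binding LIM and SH3 domain protein of focal adhesions, and the comparison asks what changes when its gene is disrupted. The samples were hybridised to Illumina bead arrays. Each value is the intensity of a probe, unlogged, and the median of every array is 1000. The labels do not say that replicates came from separate embryos or cultures, so the p-values rest on the spread among these arrays, part or all of which may be technical.

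At its brightest probe Lasp1 itself had a wild-type intensity of 144104 ± 7634 and a knockout intensity of 50898 ± 1072 (SD, n = 3 per genotype), and whether this probe lies in the disrupted part is not known. Fibroblast markers were bright, with 9 of 10 above an intensity of 2000 in at least 1 group. The highest value on any array lay between 497168 and 557143. The upper quartile of an array was lowest, 2018, for knockout replicate 2 and highest, 2330, for wild type replicate 2. Across 19057 genes, each read at its brightest probe, limma called 419 higher and 780 lower in knockout at an adjusted p under 0.05. After quantile normalization the split was 1015 higher and 1086 lower.

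The promoter sequences below show the fasciclin-domain pair, of which Postn fell in the knockout and Tgfbi was not called, and Tnc, whose probes disagreed. RefSeq (GRCm38.p6) sequences were matched for 6 of the 10 genes, namely Thbs2, Tnc, Postn, Tgfbi, Sparc and Spp1. Each line is the 250 bases before an annotated transcription start, 5′ to 3′ on the strand of the gene. Capitals mark matches on either strand to a TATA box (TATAAA), an E-box (CANNTG), which basic helix-loop-helix factors such as Twist1 bind, an AP-1 site (TGANTCA) or a TEAD core (GGAATG).
Postn, first start, chr3:54359017-54359266, plus strand: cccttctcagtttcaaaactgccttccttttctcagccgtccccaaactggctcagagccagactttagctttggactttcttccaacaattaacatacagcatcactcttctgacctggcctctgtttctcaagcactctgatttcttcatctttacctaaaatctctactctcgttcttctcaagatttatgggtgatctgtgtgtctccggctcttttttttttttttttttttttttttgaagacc
Postn, second start, chr3:54360857-54361106, plus strand: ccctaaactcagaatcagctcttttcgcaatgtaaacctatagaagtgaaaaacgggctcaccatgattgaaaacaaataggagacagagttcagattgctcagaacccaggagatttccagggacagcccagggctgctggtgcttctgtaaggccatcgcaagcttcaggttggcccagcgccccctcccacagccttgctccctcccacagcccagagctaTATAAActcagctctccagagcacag
Tgfbi, chr13:56609336-56609585, plus strand: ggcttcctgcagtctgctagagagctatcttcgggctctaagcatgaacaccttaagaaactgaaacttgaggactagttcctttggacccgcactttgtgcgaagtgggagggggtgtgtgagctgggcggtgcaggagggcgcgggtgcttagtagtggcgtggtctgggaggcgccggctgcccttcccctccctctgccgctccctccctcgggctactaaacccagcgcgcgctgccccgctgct
Tnc, first start, chr4:64046937-64047186, minus strand: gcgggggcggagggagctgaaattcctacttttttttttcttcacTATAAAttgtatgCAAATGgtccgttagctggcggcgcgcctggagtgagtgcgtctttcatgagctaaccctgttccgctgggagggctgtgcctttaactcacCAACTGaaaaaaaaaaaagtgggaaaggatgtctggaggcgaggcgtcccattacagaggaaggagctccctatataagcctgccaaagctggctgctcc

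The second Postn start had a TATA box beginning 26 bases before it and no match to the other 3 motifs. The first Postn start and the Tgfbi start had no match to any of the 4. The Tnc window shown had a TATAAA match 205 bases before the start and E-boxes at 192 and 100 bases. Starts are numbered by rising genome coordinate, so the second Tnc start, on the minus strand, lies upstream of the first. Its window, not shown, overlaps the first and had TATAAA at 126 bases and E-boxes at 217, 113 and 21 bases. Only the letters TATAAA were searched as a TATA box, so the similar string tatataa nearer the first Tnc start is unmarked. None of the marked matches overlapped another. Of 32851 promoter windows of the same length, 12.4% held the TATA box, 66.2% the E-box, 6.75% the AP-1 site and 12.6% the TEAD core. A match of these letters is a description of the sequence and not a measured site.

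Of the 9 measured genes, Smoc1 and Mgp rose in Lasp1 knockout fibroblasts, Postn fell, and 6 were not called. Smoc1 rose 2.85-fold, Mgp rose 1.49-fold, and Postn fell to 58.5% of its wild-type intensity. Over all genes 6.29% were called (2.2% rose and 4.09% fell). Since the 9 genes were chosen with earlier results known, the shares set beside them are description only. The 9 genes all belong to the 11985 brighter genes, those whose mean exceeds the median probe mean, and of these 9.96% were called in the same fit. The 3 knockout arrays lay all above or all below the 3 wild-type arrays for 4 of the 9 genes (Tnc, Postn, Smoc1 and Mgp), against 21.3% of all genes. That share was not computed for the brighter genes alone. The median log2 difference of the 9 was -0.14, beside -0.02 over all genes. For a single gene, 3 arrays against 3 cannot give an exact two-sided permutation p below 0.1, so calls rest on limma's test over all genes.

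**Figure D1:**
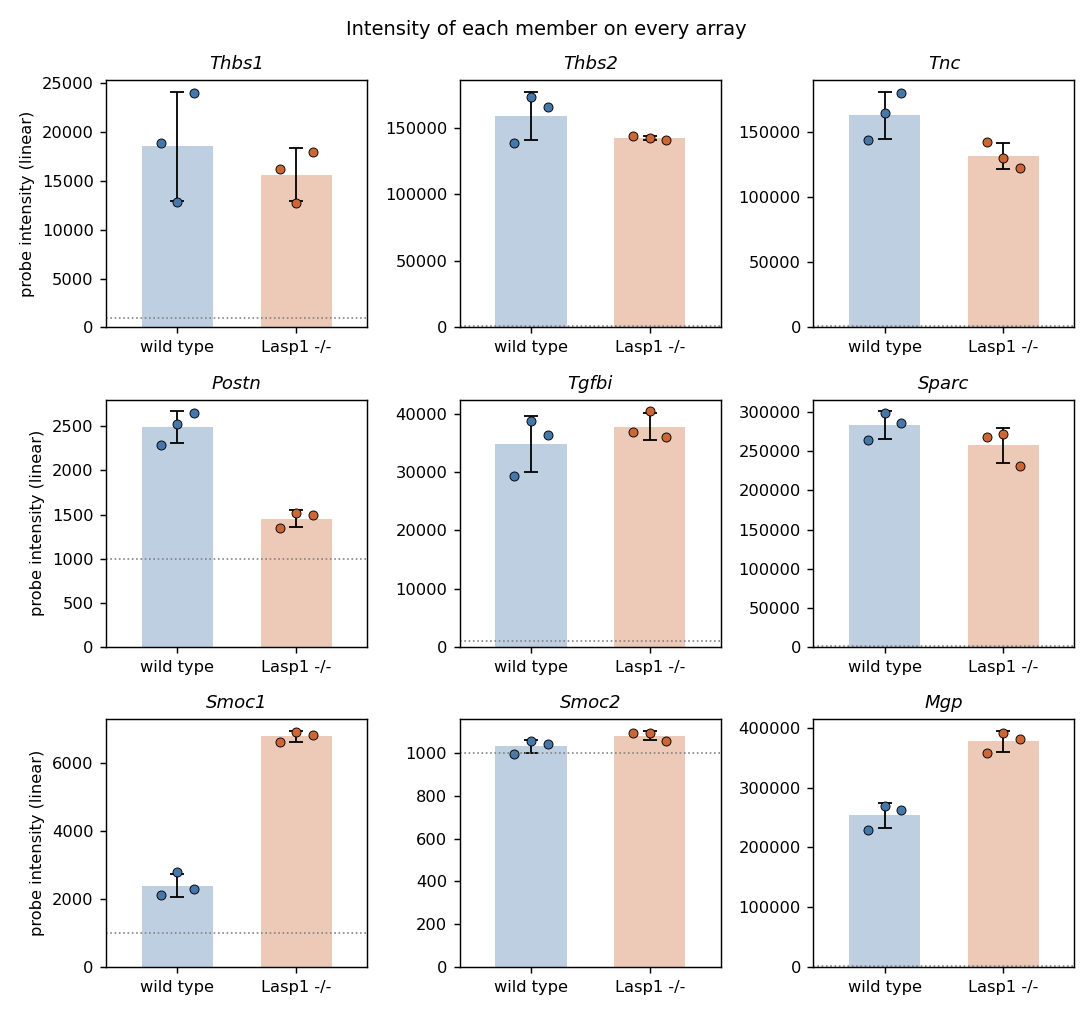
Probe intensity (linear, vertical axis from 0, a separate scale for each gene) of the 9 measured genes at their brightest probe. Points are arrays, bars are means with SD (n = 3 per genotype), and the dotted line is the array median of 1000. Smoc1 and Mgp are higher and Postn is lower on all 3 knockout arrays, while the Smoc2 arrays sit at the dotted line.

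The thrombospondins are large multimeric glycoproteins. Thbs1 activates latent TGF-beta and restrains angiogenesis, and Thbs2 shares the antiangiogenic action and affects collagen fibril assembly. Thbs1 (1 probe) read 18845, 12851 and 24021 on the wild-type arrays and 16246, 12738 and 17990 on the knockout arrays. The groups overlapped, and wild type alone spanned 1.87-fold from its lowest to its highest array, the widest spread of the 9 genes. The log2 difference (knockout minus wild type) was -0.21 ± 0.21 (SE), with a 95% interval of -0.69 to 0.26 and a limma adjusted p of 0.701. An effect of up to 1.20-fold higher or down to 62.0% of wild type was therefore within the interval.

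Thbs2 (1 probe) read 138702, 173214 and 165632 in wild type and 143597, 142048 and 141205 in knockout. The knockout arrays lay within 1.02-fold of each other, and wild type replicate 1 fell below all of them. Knockout differed by -0.16 ± 0.09 on the log2 scale (95% interval -0.36 to 0.05, limma adjusted p = 0.444), which limits a fall to 77.7% of wild type. In the RefSeq annotation Thbs2 lies on chromosome 17, as does Smoc2, with 3 genes between them.

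Tenascin-C is a hexameric glycoprotein that loosens cell adhesion to fibronectin and is spliced into many isoforms. Its brightest probe (ILMN_2463181) read 143747, 165192 and 180221 in wild type and 142623, 130388 and 122741 in knockout. The knockout arrays were all lower, but knockout replicate 1 came within a small margin of wild type replicate 1. The log2 difference was -0.30 ± 0.10 (95% interval -0.53 to -0.08) and did not pass over all genes (limma adjusted p = 0.128). It passed without wild type replicate 1 (-0.39, limma adjusted p = 0.0356) and with array weights (-0.43, limma adjusted p = 0.0054). These were the only 2 of 13 alternatives that called Tnc, and on leaving out 1 array its limma adjusted p reached 0.397.

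The 7 Tnc probes did not move together: 4 were lower and 3 higher in knockout, and none was called among 34885 probes (4.55% of which were). The second bright probe (ILMN_2463180) differed by -0.30 ± 0.08, close to the brightest (limma adjusted p = 0.0935 over all probes). A probe designed on another transcript record (ILMN_2567596, record AK048765) read 1728, 2487 and 1788 in wild type and 3676, 2661 and 2842 in knockout. All knockout arrays were higher there, by 0.62 ± 0.16 on the log2 scale (1.53-fold, limma adjusted p = 0.0619). That probe passed after quantile normalization (0.66, limma adjusted p = 0.00134) and with array weights (0.65, limma adjusted p = 0.00965). It also passed with a variance trend and robust estimation (0.62, limma adjusted p = 0.0138) and without wild type replicate 2 (0.79, limma adjusted p = 0.00321). These were the only 4 of 12 alternatives that called it. With normexp background correction the limma adjusted p was 0.183, and on leaving out 1 array it reached 0.267.

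Taken as a ratio within each array, the AK048765 probe changed by 0.92 (pooled SD 0.24, n = 3 each) on the log2 scale against the brightest probe. The knockout arrays did not overlap wild type (exact two-sided permutation p = 0.1, 0.2 after Benjamini-Hochberg over 6 such contrasts). Against the brightest probe, ILMN_1236724 changed by 0.51 and ILMN_2485085 by 0.33, also without overlap. On its own ILMN_2485085 was flat (0.03 ± 0.11), so its contrast reflects the fall of the brightest probe. The remaining contrasts overlapped, at 0.27 for ILMN_1251943, 0.28 for ILMN_2454497 and 0.00 for ILMN_2463180. These contrasts were chosen after the values had been seen. Where the probes lie in the Tnc transcripts was not analysed here, and the mean over all 7 gave 0.03 (limma adjusted p = 0.91).

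**Figure D2:**
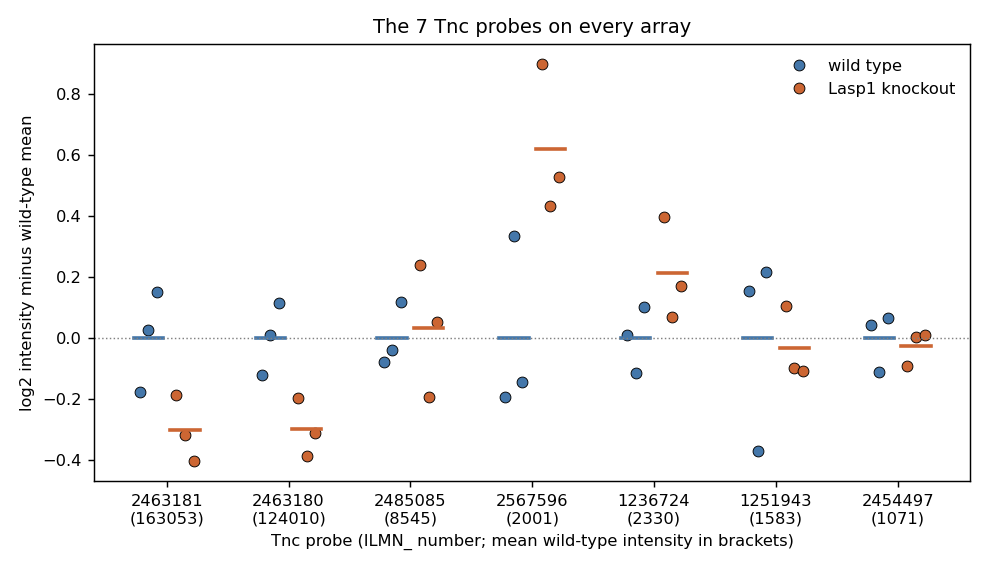
Log2 intensity of each Tnc probe on every array, minus that probe's wild-type mean (vertical axis), with probes in order of mean intensity. Points are arrays and horizontal strokes are group means (n = 3 per genotype). The 2 brightest probes are lower in knockout by about 0.30, and the ILMN_2567596 probe is higher by 0.62.

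Periostin and TGFBI share 4 fasciclin domains and bind integrins. Periostin also helps collagen crosslinking through BMP1 and lysyl oxidase, and both genes are known TGF-beta targets. Postn at its brightest probe (ILMN_2766028) read 2290, 2526 and 2645 in wild type and 1350, 1519 and 1496 in knockout. Every knockout array was below every wild-type array, with a gap wider than the spread of either group. The log2 difference was -0.77 ± 0.08 (95% interval -0.96 to -0.58), a 1.71-fold fall with a limma adjusted p of 0.000815. Leaving out any 1 array kept the call (log2 -0.83 to -0.72).

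The size of the Postn fall is less firm than its direction at this probe. Knockout values lie close to the array median of 1000, and a background correction (normexp) gave -1.19. The other 2 Postn probes read 974 ± 42.7 and 911 ± 74.1 in wild type (SD, n = 3), at or below the array median, with log2 differences of 0.00 and -0.10. Averaged over all 3 probes the difference was -0.29 (limma adjusted p = 0.0209).

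Tgfbi read 29398, 38657 and 36285 in wild type and 36869, 40394 and 36066 in knockout at its brightest probe. The knockout arrays fell inside or just above the wild-type range, and wild type replicate 1 was the lowest of the 6. Knockout exceeded wild type by 0.13 ± 0.11 on the log2 scale (95% interval -0.12 to 0.37, limma adjusted p = 0.636), and its second probe gave -0.05 ± 0.14. Within arrays, the log2 ratio of Postn to Tgfbi changed by -0.90 between the genotypes and was lower on every knockout array (exact two-sided permutation p = 0.1, the smallest possible, and 0.133 after Benjamini-Hochberg over 4 gene pairs).

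SPARC is a collagen-binding glycoprotein that guides procollagen into the matrix, and SMOC1 and SMOC2 are its calcium-binding relatives with thyroglobulin-like domains. SMOC1 is known to antagonise BMP signalling in limb and eye development. Smoc1 (ILMN_1225376) read 2101, 2779 and 2286 in wild type and 6592, 6903 and 6796 in knockout. The knockout arrays were tightly grouped, within 1.05-fold of each other, and all lay more than 2-fold above the highest wild-type array. The log2 difference was 1.51 ± 0.10 (95% interval 1.28 to 1.74) with a limma adjusted p of 7.81e-05.

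The second Smoc1 probe (ILMN_2567020, record AK040931) was dim, at 815, 943 and 928 in wild type and 1086, 1151 and 1035 in knockout. Its groups did not overlap either, and its log2 difference of 0.29 ± 0.08 did not pass over all probes (limma adjusted p = 0.093). It passed after quantile normalization (limma adjusted p = 0.0464) and with a variance trend and robust estimation (limma adjusted p = 0.0214). These were the only 2 of 12 alternatives that called it, and on leaving out 1 array its limma adjusted p reached 0.294. The mean of the 2 probes gave 0.90 for Smoc1 (limma adjusted p = 0.000752), and the background correction gave 1.82 at the brighter probe.

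Smoc2 had a single probe, from the record AK040109, which read 998, 1059 and 1042 in wild type and 1093, 1096 and 1058 in knockout. These values sit at the array median, so a low Smoc2 level and a probe that does not detect the transcript cannot be told apart. Its log2 difference was 0.07 ± 0.07 (95% interval -0.09 to 0.22, limma adjusted p = 0.713). The ratio of Smoc1 to Smoc2, 1 of the 4 gene pairs computed, is not read as a comparison, since the Smoc2 probe was not shown to be above background.

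Sparc read 264843, 299374 and 286442 in wild type and 268560, 272367 and 231693 in knockout at its brightest probe. Only knockout replicate 3 lay below the wild-type range. The log2 difference was -0.14 ± 0.09 (95% interval -0.34 to 0.06, limma adjusted p = 0.479), and the 2 other probes gave -0.17 ± 0.17 and -0.18 ± 0.12. All 3 probes were thus slightly lower without passing. The log2 ratio of Sparc to Smoc1 within arrays fell by 1.65 between the genotypes, with no overlap (exact two-sided permutation p = 0.1, adjusted 0.133). For Thbs1 and Thbs2, the fourth pair compared, the ratio differed by -0.06 and the arrays overlapped (exact two-sided permutation p = 0.9).

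Matrix Gla protein is a small vitamin K-dependent protein that inhibits calcification of cartilage and vessel walls and binds BMPs. Mgp (1 probe) read 229963, 269584 and 262036 in wild type and 358527, 391932 and 382235 in knockout. Each knockout array was above each wild-type array, and all were below the highest value of their array. The log2 difference was 0.58 ± 0.08 (95% interval 0.39 to 0.76, limma adjusted p = 0.00396). Its size was 0.58 under the background correction too, but the call was lost there (limma adjusted p = 0.081). Leaving out any 1 array kept it (0.51 to 0.62).

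**Figure D3:**
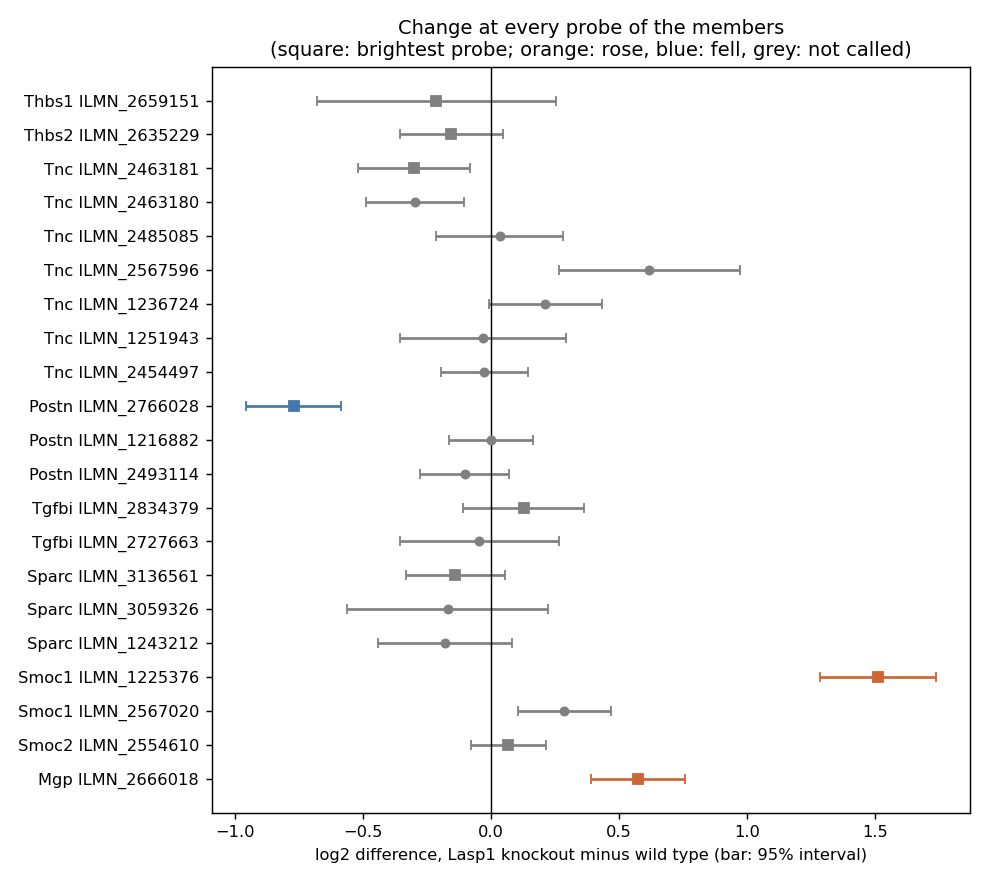
Log2 difference between Lasp1 knockout and wild type (horizontal axis) at each of the 21 probes, with 95% intervals from the limma fit over all 34885 probes. Squares are the brightest probe of each gene, orange marks a rise, blue a fall and grey no call. The 3 called probes are those of Postn (-0.77), Smoc1 (1.51) and Mgp (0.58), and 18 probes were not called.

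Among the 21 probes, 5 had a mean under 1500, that is within 1.5 times the array median: 1 of Tnc, 2 of Postn, 1 of Smoc1 and the Smoc2 probe. Genes called at their brightest probe and flat at a dimmer one (Postn, and in part Smoc1) therefore differ by probe. Even the called Postn probe was dim in knockout, with a mean of 1455, under that bound. Of the 4 genes with 1 probe (Thbs1, Thbs2, Smoc2 and Mgp) no second reading was available.

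The genes whose pattern over the 6 arrays lay nearest to each called gene were found by the root mean square difference of log2 profiles, each profile centred on its own mean. About 7480 genes with a mean above 2000 were searched, as a description with no test. A small distance requires a similar difference between the genotypes, so the log2 differences given here are not a further result. Nearest to Smoc1 were the kininogen gene Kng2 (0.11 log2 units apart), the chondrogenic transcription factor gene Sox5 (0.14) and the hyaluronan-degrading Cemip (0.14), whose own log2 differences were 1.32, 1.62 and 1.47. Nearest to Postn were Psip1 (0.06), which encodes a chromatin-binding protein, the kinase gene Jak2 (0.06) and the olfactomedin-like Olfml3 (0.07), at -0.69, -0.69 and -0.66. Nearest to Mgp were the homeobox gene Meox1 (0.03), Ociad2 (0.04) and C2cd4a (0.05), at 0.57, 0.53 and 0.56.

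Close relatives of the 10 genes gave 2 falls, 1 rise and 15 not called of 18 measured (16.7% called, against 6.29% of all genes). The lists here and below were also chosen with earlier results of these data known. Tnn, a tenascin also called tenascin-W, read 2103, 2288 and 2405 in wild type and 918, 1042 and 973 in knockout. It fell 2.32-fold (log2 -1.21 ± 0.08, limma adjusted p = 7.81e-05) to the array median, and the background correction gave -2.29. Comp, the cartilage thrombospondin, fell 2.07-fold (log2 -1.05 ± 0.17, limma adjusted p = 0.00595). Ibsp, bone sialoprotein and a relative of Spp1, rose from 885 ± 8.38 to 1578 ± 117 (SD, n = 3 each; log2 0.83 ± 0.08, limma adjusted p = 0.000362), with 1.91 under the background correction. Means over all their probes gave -0.61 for Tnn, -0.70 for Comp and 0.41 for Ibsp, all still called. Thbs3 (-0.34) and Tnxb (-0.34) did not pass, and Thbs4, Sparcl1, Tnr and Spock1 read near or below the array median in both groups.

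Of 22 receptors for these proteins, 3 rose and 19 were not called (13.6% called, against 6.29% of all and 9.96% of brighter genes). They were Itga3, the alpha 3 integrin chain (log2 0.78 ± 0.11, limma adjusted p = 0.00269), the EGF receptor Egfr (0.65 ± 0.15, limma adjusted p = 0.0318), which tenascin-C repeats can bind, and the syndecan Sdc4 (0.55 ± 0.13, limma adjusted p = 0.0391). Itgav, the alpha v chain that pairs with several beta chains to bind periostin, tenascin-C and osteopontin, differed by 0.71 with overlapping arrays (limma adjusted p = 0.127). The thrombospondin receptor Cd47 (-0.13), the integrin chains Itgb1 (0.15) and Itgb5 (0.03) and Cd44 (0.26) were not called, and Cd36 read below the array median. The calls of Egfr and Sdc4 were lost without wild type replicate 3, without any 1 of the knockout arrays and under the background correction, which left Itga3 as the 1 rise. Without wild type replicate 2, 5 receptors rose, beside 734 rises among 1443 called of all genes. Quantile normalization called 7 (6 rose, 1 fell) and array weights 6 (5 rose, 1 fell), beside 2101 and 3281 of all genes.

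Of 21 matrix partners and processing enzymes, 1 rose, 2 fell and 18 were not called. The share called was 14.3%, against 6.29% of all genes and 9.96% of the brighter genes. The median log2 difference was -0.17, beside -0.02 over all genes. Array weights called 9 (1 rose, 8 fell) and quantile normalization 5 (2 rose, 3 fell), beside 3281 and 2101 of all genes. The crosslinking transglutaminase Tgm2 rose from 7798 ± 990 to 18240 ± 1693 (SD, n = 3 each; log2 1.23 ± 0.11, limma adjusted p = 0.000256). The collagen chain Col1a2 (-0.84 ± 0.17, limma adjusted p = 0.0171) and the protease Adamts1, which can cleave thrombospondins (-0.84 ± 0.13, limma adjusted p = 0.00628), fell. Over all their probes Tgm2 gave 0.69 and Adamts1 -0.38, both still called. Bmp1 (-0.12), Fn1 (-0.16) and Lox (0.05), which periostin binds, were not called. The vitamin K cycle genes that Mgp needs, Ggcx (-0.26, limma adjusted p = 0.0602) and Vkorc1 (0.08), were not called either.

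Of 24 measured upstream regulators, 2 fell and 22 were not called. The share called, 8.33%, is near the 6.29% of all genes and the 9.96% of the brighter genes, so the count says nothing particular about this list. Quantile normalization called 5 (2 rose, 3 fell) and array weights 6 (3 rose, 3 fell), beside 2101 and 3281 of all genes. Both falls were Twist genes, basic helix-loop-helix factors of mesenchyme. Twist1 went from 24224 ± 2141 to 14191 ± 1212 (SD, n = 3 each; log2 -0.77 ± 0.09, limma adjusted p = 0.00151), and Twist2 differed by -0.48 ± 0.09 (limma adjusted p = 0.0116). Tgfb1 (-0.64, limma adjusted p = 0.0565), Tgfb2 (0.30), Tgfb3 (-0.19), the receptors Tgfbr1 (0.01) and Tgfbr2 (-0.16) and Smad3 (0.07) did not pass. The calls of Twist2 and Col1a2 were lost under the background correction and on leaving out any 1 of 3 arrays: wild type replicate 3 and knockout replicates 2 and 3. Counted once each, 11 of the 84 genes in these 4 lists were called with all arrays and 7 without any 1 of those 3 arrays. Without wild type replicate 2, 4 upstream regulators were called (2 rose, 2 fell), beside 1443 of all genes.

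**Figure D4:**
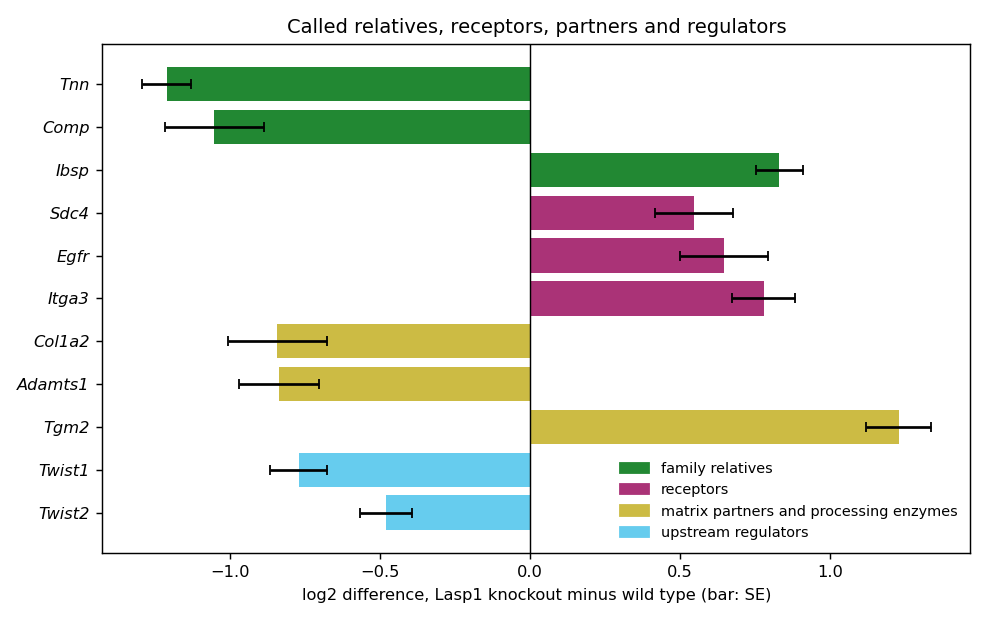
Log2 difference between Lasp1 knockout and wild type (horizontal axis, bars with SE, n = 3 per genotype) of the 11 called genes in the lists of relatives, receptors, matrix partners and upstream regulators. Tnn and Comp show the largest falls (-1.21 and -1.05) and Tgm2 the largest rise (1.23) of the 11.

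Markers of cell types were read beside these results. Of 10 fibroblast markers, 5 fell (Col1a2, Dcn, Lum, Pdgfrb and Thy1), beside 4.09% of all genes. Col1a1, Col3a1, Pdgfra, Vim and Fap were not called. The summed intensity of the 10 was 848207 to 976877 in wild type and 664000 to 703282 in knockout. Much of it came from Thy1 (means 273486 and 179716) and the uncalled Col1a1 (264623 and 227027). Of 6 chondrocyte markers, Col2a1 rose from 1207 to 18527 and Sox9 fell (-0.47), while Acan, Col9a1, Col11a2 and Matn1 stayed within 1.5 times the array median. Their sum was 47938 to 55729 in wild type and 53552 to 62388 in knockout. Within that sum the Col2a1 rise and the Sox9 fall (from 47448 to 34290) partly cancel. Of 5 osteoblast markers Ibsp alone was called, and Bglap, Sp7, Dmp1 and Alpl were near the array median (sums 4735 to 4951 and 5289 to 5721). Of 5 smooth muscle markers, Tagln rose (0.63). Their sums, 523854 to 543418 in wild type and 568442 to 593451 in knockout, are mostly Acta2. Acta2 itself (means 507140 and 541317) was not called (limma adjusted p = 0.561).

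Of 7 measured macrophage markers, Lyz2 rose from 3772 to 5535, and Cd14 (1823 to 2320) was higher without passing (limma adjusted p = 0.0772). Ptprc, Csf1r, Adgre1, Aif1 and Itgam were near the array median in both groups. The sums of all 7 were 10027 to 11251 in wild type and 12858 to 13489 in knockout. Of 6 epithelial markers, Krt14 and Krt8 fell, with sums of 20052 to 25092 in wild type and 8144 to 8354 in knockout. Krt18 was slightly higher (1387 to 1570, log2 0.18, not called), and Cdh1, Epcam and Krt5 were near the array median. None of 5 endothelial markers was called (sums 5888 to 6355 and 5622 to 5792). The part of these shifts in the changes of Smoc1, Mgp and Postn was not tested, and in such bulk samples fewer cells of a type and less RNA per cell cannot be told apart.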

How the data were processed

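The authors' deposited values are linear probe intensities in which each array has a median of 1000. The assay (biotin-labelled cRNA on Illumina bead arrays) is stated per the labels' protocols, while scanner, software, background handling and bead summary are details the labels leave unstated (not given in the sources used). Of 45281 probes, 34885 had 1 gene symbol in the platform annotation, 18 had several and 10378 had none. For each of 19057 genes the brightest probe, by its mean intensity, stood for the gene.

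Log2 intensities entered limma 3.58.1 under R 4.3.3 (functions lmFit and eBayes, genotype as the term, 4 residual and 5.12 prior degrees of freedom). P-values were two-sided, Benjamini-Hochberg adjusted over all genes (or all probes), with 0.05 as the threshold. The number of arrays limits the precision. The script was tested on simulated data. It missed a first criterion, a minimum share of simulated 2-fold changes called, and that criterion was then replaced by limits on bias, on larger changes called and on false calls. Changes of 2-fold can therefore go uncalled.

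Members and lists were chosen with earlier results of these data known. Named are all members, Lasp1, up to 4 called rises and falls per list with separate groups and a mean above 1500 in a group, and the 3 genes nearest in pattern to each called member. Genes outside that rule that are named with values to fill out a list, and all cell type markers, are given as description. Smad4, Runx2 and Trp53 were not analysed here. Alternatives were quantile normalization, normexp background correction (offset 50), only genes above the median of all probe means, eBayes with trend and robust estimation, array weights, averaging the probes of a gene, a replicate block, and leave-one-out over arrays.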

Additional observations from a re-analysis of the deposited data

How the results depend on the processing

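Smoc1 and Postn were called under all 13 alternatives, and Mgp under all but the background correction. The 3 called members became 4, through Tnc, without wild type replicate 1 and also with array weights. Array weights gave 3281 called genes overall and 25 in the 4 lists (1199 and 11 in the deposited scaling), quantile normalization 2101 and 20, and normexp 538 and 7. Whether the replicate numbers pair the samples is not known. Same-numbered arrays had correlations of deviations of -0.41, -0.34 and 0.22 over 11985 genes. Of the 3 wild-type arrays, 1 correlated best with its own number. With so few arrays per group these correlations cannot decide it. With the replicate number as a block, 411 genes and 7 list genes were called, and Smoc1, Mgp and Postn passed, while the calls of Twist2 (limma adjusted p = 0.0777), Col1a2 (0.124), Egfr (0.127) and Sdc4 (0.166) were lost. Leaving out 1 array gave 463 to 1594 genes, 7 to 15 list genes and 3 to 4 members, with 510, 609 and 463 genes without wild type replicate 3, knockout replicate 2 and knockout replicate 3.

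Changes in the within-array ratios were 1.67 (Smoc1 to Smoc2), -1.32 (Postn to Tgfbi) and -1.97 (Sparc to Smoc1) under normexp, and 0.83, -0.33 and -1.06 with the mean of all probes. Those of Smoc1 to Smoc2 rest on a Smoc2 probe at the array median and show no contrast between the genes. For Thbs1 to Thbs2 leaving out 1 array gave -0.37 to 0.12. Signs turned only for differences near 0 and for Tnc with the mean of its probes (0.029). The dim Postn probe ILMN_1216882 gave 0.050 with array weights and -0.041 to 0.041 on leaving out 1 array, and Tgfbi ILMN_2727663 gave 0.062 after quantile normalization and -0.23 to 0.061 on leaving out 1 array. Of the Tnc probes, ILMN_2485085 gave -0.030 with array weights and -0.071 to 0.15 on leaving out 1 array, ILMN_1251943 gave -0.22 to 0.074, and ILMN_2454497 gave -0.081 to 0.0064. The cause of these shifts was not tested. How far signal over background limits the probes near the array median could not be measured, since detection values were not used here.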
